A study of Mus musculus with 12 samples.

Results

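Macrophage-like cells were looked for among mouse antibody-secreting cells (ASCs) that had been sorted from spleen and bone marrow for single-cell RNA sequencing. A cell barcode was kept where it held at least 500 unique molecular identifiers (UMIs, each standing for 1 captured RNA molecule) outside the Igh, Igk and Igl genes and where mitochondrial genes took under 10% of its UMIs. A kept barcode was a member where 7 macrophage genes (C1qa, C1qb, C1qc, Lyz2, Csf1r, Adgre1 and Cd68) summed to at least 5 UMIs and 5 neutrophil genes (S100a8, S100a9, Ngp, Camp and Ltf) to under 20. The rule found 176 members among 35241 kept barcodes of the 4 spleen and bone marrow libraries; 36435 barcodes were kept in the whole series. The comparison barcodes, 7565 in number, held no UMI of the 7 macrophage genes, and 1 light-chain V gene took at least 50% of their Igkv and Iglv UMIs, as a single ASC would show. The members were thus chosen by their own marker UMI counts, so marker levels, and all differences in expression between members and comparison barcodes, are given as a description with no test.

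All mice carried the Prdm1-eYFP reporter of The Jackson Laboratory on a C57BL/6 background and were 3 months old; none was treated, and no mouse without the reporter was analysed here. The groups were female bone marrow, male bone marrow, female spleen and male spleen, each a single library from a sort that pooled 3 mice. The gate took cells that were Prdm1-eYFP+ and CD138HI, lacked IgD and CD90.2 and were B220 positive or negative. Sorted cells of each sex and organ went into a GEM well of their own for 10x 5′ v1.1 gene expression and B-cell VDJ libraries. With 1 library per sex and tissue, pools and sex cannot be told apart, and the tests below compare 2 libraries with 2.

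Tissue macrophages engulf dying cells and debris. Red pulp macrophages of the spleen and the island macrophages of bone marrow clear old red cells or expelled nuclei, break down heme through Hmox1, store iron in ferritin and export it through the ferroportin gene Slc40a1, and the transcription factor Spic is needed for the red pulp type. C1q, encoded by C1qa, C1qb and C1qc, opens the classical complement pathway and is made largely by such resident macrophages, while lysozyme (Lyz2) is high in monocytes and many other myeloid cells. ASCs express Prdm1, which drives the reporter used for the sort, and the syndecan gene Sdc1, which encodes CD138; Prdm1 is also known from some myeloid cells. Macrophages are counted among the cells of the niches in which plasma cells live.

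The gene expression libraries held 19918193 to 85749785 UMIs on 4894 to 15576 barcodes, and 3639 to 15469 barcodes were kept. Xist gave 13694 and 46377 UMIs in the libraries labelled female and 29 and 49 in those labelled male, and Ddx3y gave 2 and 1 against 853 and 1858, which matched the sex labels of these libraries. The VDJ libraries did not match theirs. The VDJ library labelled female bone marrow shared 1718 of its 1778 barcodes with male bone marrow gene expression and 38 with female, and the one labelled female spleen shared 2794 of 2893 with male spleen and 64 with female. Those labelled male shared 1046 of 1049 barcodes with female bone marrow and 1253 of 1253 with female spleen. VDJ contigs were therefore joined to members by shared barcodes, and the values under the labels stand beside them. Between 382 and 583 barcodes of a library recurred in another gene expression library; 2 to 4 members per library did so, and none was a member in both.

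Members were rare in every library. Female bone marrow held 12 members among 4914 kept barcodes (0.244%, exact 95% interval 0.126% to 0.426%), male bone marrow 24 of 3639 (0.660%, 0.423% to 0.980%), female spleen 84 of 15469 (0.543%, 0.433% to 0.672%) and male spleen 56 of 11219 (0.499%, 0.377% to 0.648%). These intervals cover counting error only. Female bone marrow was the lowest and male bone marrow the highest, so the tissues overlapped. This order belongs to the rule as given: with at least 10 marker UMIs the shares were 0.122%, 0.192%, 0.194% and 0.196%, and with barcodes thinned to 1000 UMIs male spleen was the highest, at 0.310% against 0.249% in male bone marrow. An exact permutation test of 2 libraries against 2 cannot reach a p of 0.05, and none was made. The gate selected against cells without reporter or CD138, so these shares describe the sorted fraction and not the organ, and a smaller share cannot be told apart from less marker RNA per cell. In thymus, 1 female and 3 male barcodes met the rule and were not analysed.

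Lyz2 had the highest summed count of the 7 markers in each library, in part through single barcodes. It stood at 11415 CPM (UMIs of a gene per 1000000 UMIs outside immunoglobulin genes) over the members of female bone marrow, 1591 in male bone marrow, 941 in female spleen and 1220 in male spleen. The female bone marrow value stood apart; 296 of its 597 Lyz2 UMIs came from 1 barcode. In female spleen 271 of 466 did, and without that barcode, which held no C1qb, Lyz2 had 195 UMIs there, below the 273 of C1qb. C1qb stood at 382, 396, 551 and 722 CPM in the same order of libraries, C1qa at 306, 256, 369 and 492 and C1qc at 363, 288, 371 and 573. Over all members the 3 C1q genes were lower in both bone marrow libraries than in both spleen libraries, but among the C1q-led members defined further on the direction turned, with C1qb at 3408, 3615, 2484 and 2255 CPM. Cd68, a lysosomal membrane protein, lay between 284 and 437 CPM, Csf1r, the receptor for the growth factor CSF1, between 33.0 and 155 and Adgre1, which encodes F4/80, between 26.8 and 41.2.

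The RNA that floats free in the droplets was read from barcodes outside the filtered lists with at most 100 UMIs. There the 7 markers summed to 89.8, 88.4, 74.1 and 72.6 CPM, against 12926, 3041, 2684 and 3472 CPM over members. The lowest single member held 136 CPM. Every member was thus above the free RNA of its library in marker level, as the rule made likely.

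Many members lay close to the threshold. Of the 176 members, 111 held 5 to 9 marker UMIs, 35 held 10 to 19 and 30 held 20 or more. Just inside, 0, 6, 23 and 14 barcodes of female bone marrow, male bone marrow, female spleen and male spleen had exactly 5 marker UMIs; just outside, 9, 9, 41 and 14 had 4. At least 3 of the 7 genes were seen in 111 members and 2 in 27. In the other 38 all marker UMIs came from 1 gene, which was Cd68 in 28 of them. The neutrophil limit removed 22 barcodes of female and 20 of male bone marrow and none of spleen; the lowest of those removed held 90 and 45 neutrophil UMIs, while no member held more than 3.

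The label of macrophage-like cells was then checked against the genes each member carried. Members were split, after their values were seen, into 49 in which 1 light-chain V gene took at least 50% of at least 10 light-chain V UMIs and, among the rest, those whose highest count was that of the 3 C1q genes summed (88), of Lyz2 (32) or of Cd68, Csf1r and Adgre1 summed (7, called Cd68-led). A tie between C1q and another count was placed with C1q, and 1 Cd68-led barcode held 2 C1q UMIs beside 2 of Cd68 and 1 of Csf1r. The C1q-led group made up 4 of 12 members in female bone marrow, 11 of 24 in male bone marrow, 41 of 84 in female spleen and 32 of 56 in male spleen. It was the largest group in the last 3 libraries and tied with the Lyz2-led and light-chain-dominated groups in the first. Because the light-chain-dominated barcodes were deep, with a median of 10538 UMIs outside immunoglobulin genes against 1252 in C1q-led members, they held 66.0% of all member UMIs and the C1q-led group 17.0%. Sums over all members therefore describe the light-chain-dominated barcodes more than the C1q-led ones. The label is kept for the C1q-led group alone, from the macrophage genes outside the rule that are given with it, since its C1q level was fixed by the split. For the other 88 members the label was not borne out as a whole, and they are called by their leading genes.

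**Figure D1:**
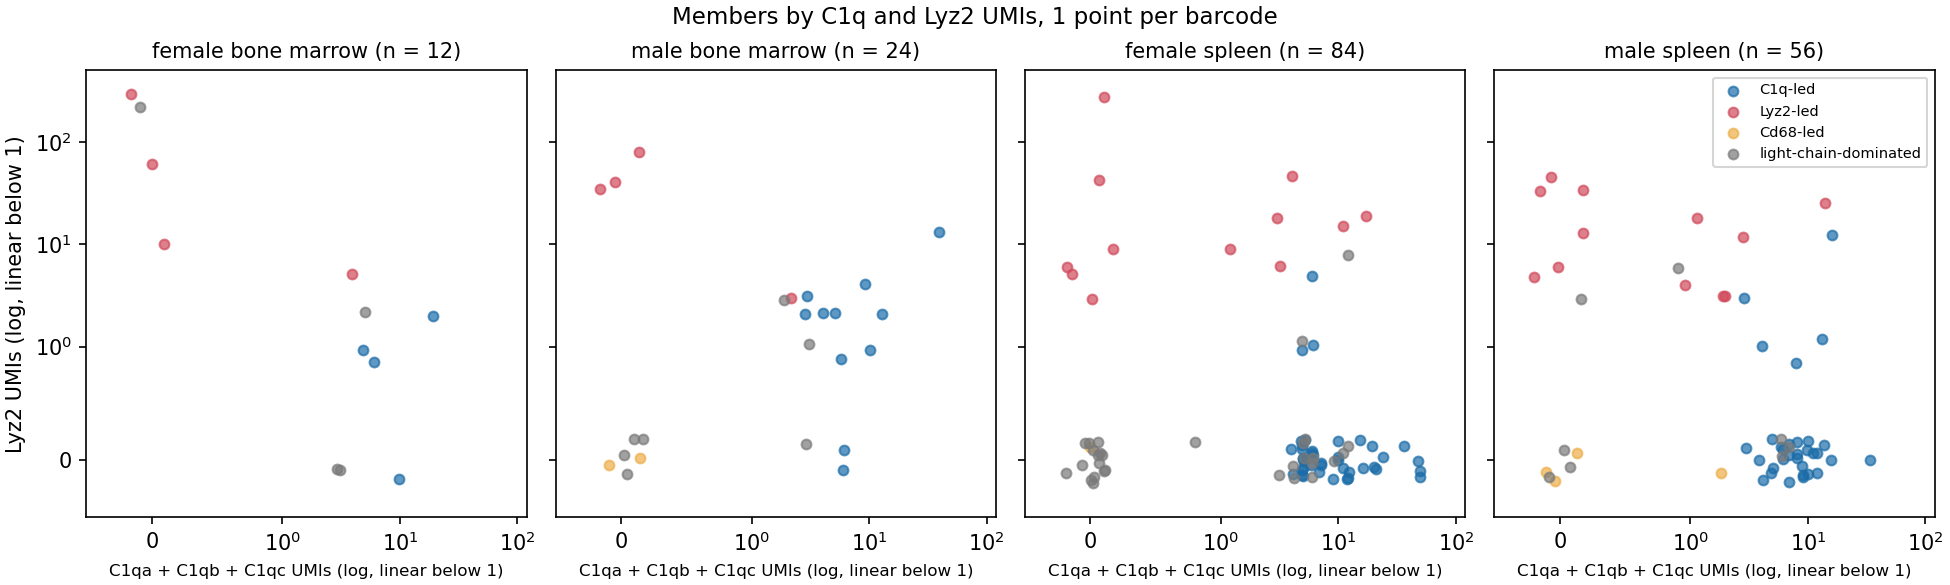
Each point is 1 member, placed by its summed C1qa, C1qb and C1qc UMIs (horizontal) and its Lyz2 UMIs (vertical) on axes that are logarithmic above 1 and linear below; panels are the 4 libraries with 12, 24, 84 and 56 members, and colours are the 4 groups. In both spleen panels most C1q-led points sit at 0 Lyz2 UMIs, while most bone marrow ones sit above 0.

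**Figure D2:**
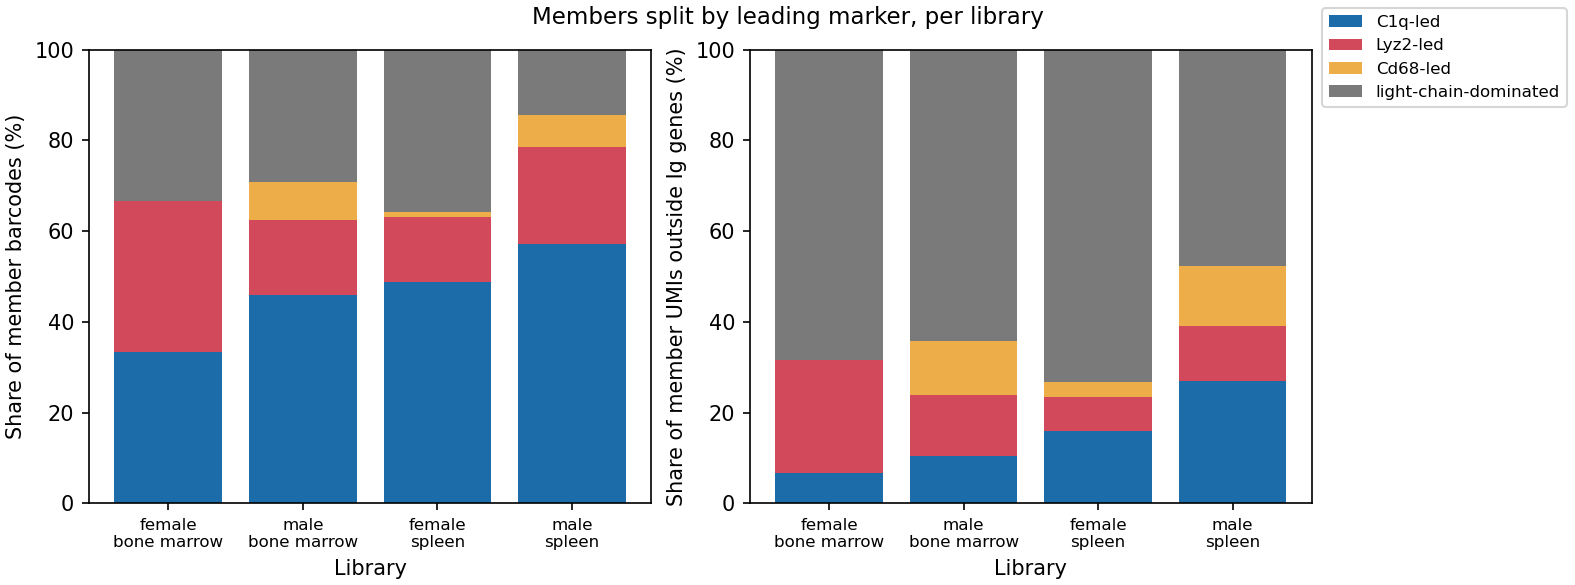
Stacked bars give, per library, the percentage of member barcodes (left) and of the members' UMIs outside immunoglobulin genes (right) in the C1q-led, Lyz2-led, Cd68-led and light-chain-dominated groups. In male spleen, for example, the C1q-led group is 57.1% of the barcodes and 27.0% of the UMIs.

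C1q-led members carried the heme and iron genes of red pulp and erythroid island macrophages. Hmox1, heme oxygenase, stood at 4260 CPM in female bone marrow, 3301 in male bone marrow, 2978 in female spleen and 1741 in male spleen, with UMIs in 67 of the 88 barcodes. In free RNA it stood at 6.59 to 13.3 CPM. Vcam1, an adhesion molecule of both macrophage types, stood at 1420, 2436, 1026 and 890 CPM in the same order, Slc40a1 at 284, 1100, 874 and 455 and Spic at 284, 314, 456 and 297. All 4 genes were detected in all 4 libraries, although the female bone marrow values of Slc40a1 and Spic rest on 1 UMI each. At least 2 of these 4 genes were seen in 62 of 88 C1q-led members and in 11 of the 88 other members, which were deeper at the median in each group; 10 C1q-led members had none.

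Both ferritin genes were abundant there. Fth1, the heavy chain, stood at 21301 CPM in female bone marrow, 11552 in male bone marrow, 8275 in female spleen and 5281 in male spleen, against 1352 to 1611 in free RNA and 601 to 987 in comparison barcodes. Ftl1, the light chain, stood at 22437, 20432, 11075 and 7477 CPM, against 1498 to 1770 in free RNA. Both were higher in each bone marrow library than in each spleen library. The immunoglobulin share of these members, given further on, ran the opposite way, and its part in this was not tested. The remaining genes of the red pulp and iron list included Blvrb, which reduces biliverdin, at 415 to 864 CPM, and Cd163, the hemoglobin scavenger receptor, with 9 UMIs in all. The 20 genes of that list summed to 54814, 43222, 28715 and 18870 CPM in the C1q-led group and to 3405 to 3764 in free RNA.

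Further leading genes of the C1q-led group, ranked by their level over the higher of comparison and free RNA, were Itgad, Cd302, Fcna, Clec4n and Hebp1. Fcna, a secreted lectin that activates complement, stood at 1071 CPM and was seen in 54 of 88 barcodes, against 1.83 CPM in free RNA. Itgad, which encodes CD11d, stood at 178 CPM in 18 barcodes and at 0 in free RNA. Hpgd, which degrades prostaglandins, stood at 611 CPM in 45 barcodes, and Axl, a receptor for dying cells, at 329 CPM in 36. Among further markers of resident macrophages, Marco had 11 UMIs, Timd4 3, Siglec1 2 and Vsig4 none over the 88 barcodes. A count of 0 allows up to 3 UMIs. The group was thus strong in genes such as Spic and Hmox1 and sparse in Marco, Timd4, Siglec1 and Vsig4 at this depth.

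Lyz2 was distributed unequally over the C1q-led members of the tissues. In bone marrow, 3 of 4 female and 9 of 11 male C1q-led members held a Lyz2 UMI; in spleen, 3 of 41 and 5 of 32 did. The level over these members was 1136 CPM (female) and 2358 CPM (male) in bone marrow and 88.7 and 356 CPM in spleen. Free RNA held 60.1 and 64.3 CPM of Lyz2 in bone marrow and 31.3 and 23.6 in spleen, and median depth was 868 and 1064 UMIs in the bone marrow members and 1647 and 1117 in the spleen members. Both bone marrow libraries were above both spleen libraries in share and in level. The split itself bears on this, since barcodes with C1q UMIs but more Lyz2 were placed in the Lyz2-led group. There were 1 (female) and 1 (male) of these in bone marrow and 6 and 6 in spleen. The levels of C1q-led members therefore depend on a cut on Lyz2, which also belongs to the rule, and no test was made.

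C1q-led members also held the RNA of ASCs. Jchain, the joining chain of IgM and IgA, stood at 27549, 25855, 36508 and 27316 CPM in female bone marrow, male bone marrow, female spleen and male spleen, below the 57201 to 67143 CPM of free RNA. Prdm1 stood at 405 CPM over the 88 barcodes against 433 in free RNA and 882 in comparison barcodes, Sdc1 at 213 against 217 and 374, Xbp1 at 1469 against 1867 and 3558 and Mzb1 at 2676 against 4607 and 6364. Summed over the 88 barcodes, each of these ASC genes was thus below its free RNA level, Prdm1 and Sdc1 only slightly. Apart from Jchain, these values pool 4 libraries that weigh unlike on the 2 sides. Of the 88 barcodes, 41 lay in female and 32 in male spleen, while free RNA held 2111551 to 3131941 UMIs per library. Prdm1 was seen in 39 of the 88 and Sdc1 in 23, and their order against free RNA within each library is not given. A level below that of free RNA does not give the source of this RNA, which was not tested. The transcript of the sorting reporter was not measured here, since no gene row carries a name for it.

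Of ligands through which a niche cell could sustain plasma cells, the first 4 named here were scarce in the C1q-led group and Igf1 was not. Cxcl12, the chemokine that draws plasma cells to the bone marrow, and Il6 had no UMI, Tnfsf13b, which encodes BAFF, had 1 and Tnfsf13, which encodes APRIL, had 3; the depth of these barcodes allows up to 3 UMIs behind a count of 0. Igf1 had 37 UMIs in 25 of 88 barcodes, or 254 CPM, against 0.997 in free RNA. The first 4 ligands were thus not detectable, or nearly so, at this depth, while Igf1 was detected in each library.

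Hemoglobin RNA was concentrated in a few barcodes. Hbb-bs, adult beta globin, gave 1519 UMIs in C1q-led members, of which 1028 came from 1 barcode in male spleen and 417 from 1 in female spleen, or 95.1% together. It was absent from 75 of the 88.

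Lyz2-led members were of more than 1 kind. Lyz2 stood at 28550 CPM in female bone marrow, 9725 in male bone marrow, 12139 in female spleen and 8986 in male spleen over 4, 4, 12 and 12 barcodes. Tyrobp, the adaptor of many myeloid receptors, stood at 5065, 3976, 3156 and 939 CPM. Of the 18 Lyz2-led members without a C1q UMI, 9 held at least 10 Tyrobp UMIs and 9 held at most 2; of the 14 with C1q, none held 10 and 12 held at most 2. Members without C1q were also deeper, with a median of 3001 UMIs against 1109. Leading genes of the Lyz2-led group, ranked by their level over the higher of comparison and free RNA, were S100a4, Cx3cr1, Clec4a3, Hfe and Ccl6. Ccl6, a chemokine, stood at 687 CPM in 11 of 32 barcodes and Cx3cr1, the fractalkine receptor of patrolling monocytes, at 158 in 9. Further genes of the monocyte list were Ms4a6c at 687 in 9, Ccr2, the receptor by which classical monocytes leave the marrow, at 338 in 4 and F13a1 at 180 in 4. Hmox1 stood at 113 CPM in 5. The monocyte genes were thus carried by a minority of these barcodes.

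The 7 Cd68-led barcodes included 3 with plasmacytoid dendritic cell RNA. They held 24 and 23 UMIs of Siglech, a receptor that marks plasmacytoid dendritic cells, in male bone marrow and 29 in male spleen, with 53, 60 and 60 UMIs of Tyrobp. A further 2 in male spleen held 25 and 20 Tyrobp UMIs, 241 and 271 UMIs of Cd74 (the MHC class II invariant chain) and no Siglech. The female spleen barcode held 17157 UMIs outside immunoglobulin genes, among them 188 of Mzb1, a chaperone of antibody assembly, and no Tyrobp. None of these 6 held a C1q UMI, and the C1q UMIs of the group lay in the remaining barcode.

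The 49 light-chain-dominated members carried ASC genes at high level beside a few marker UMIs. Their leading light-chain V gene took a median of 85.7% of light-chain V UMIs, against 14.5% in C1q-led members. Prdm1 stood at 1104 CPM, above the 882 of comparison barcodes, and Mzb1 at 9485 against 6364. Hmox1 stood at 62.0 CPM and Vcam1 at 30.1 CPM, above free RNA and below the C1q-led group. Of their marker genes, Cd68 was present in the most barcodes, 35 of 49, and 22 of the 49 had no marker but Cd68. It stood at 276 CPM, against 20.2 to 30.2 CPM in all kept light-chain-dominated barcodes of a library. Cd68 belongs to the rule, so this excess was fixed by the choice of members. Among all kept light-chain-dominated barcodes, Cd68 was seen in 6.47% (female bone marrow), 10.8% (male bone marrow), 9.62% (female spleen) and 6.80% (male spleen). Lyz2 summed to more, 243 UMIs against 156 of Cd68, but 219 of them came from 1 barcode and 8 of the 49 held any.

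The share of light-chain-dominated barcodes that met the rule was larger in deeper barcodes. It was 0.123% of 5712 barcodes under 5000 UMIs outside immunoglobulin genes (exact 95% interval 0.0493% to 0.252%), 0.770% of 1949 with 5000 to under 10000 (0.431% to 1.27%) and 2.58% of 1048 with 10000 or more (1.70% to 3.73%). The order held in each of the 4 libraries. The rule of 5 UMIs takes no account of depth, and what accounts for this order was not tested. The 7 members under 5000 UMIs held 1464 to 4975. Each of them held C1q UMIs (2 to 7) among its 5 to 7 marker UMIs, and at most 1 Tyrobp UMI. Among the deeper ones, a female bone marrow barcode held 219 Lyz2 and 28 Tyrobp UMIs with 96.6% of its light-chain V UMIs in 1 gene, and a female spleen barcode held 26 marker and 20 Tyrobp UMIs.

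Immunoglobulin RNA was present in all groups. It took 35.0% of all UMIs in C1q-led members, 21.8% in Lyz2-led, 23.0% in Cd68-led and 48.1% in light-chain-dominated members. By library, C1q-led members held 18.9% in female bone marrow, 32.1% in male bone marrow, 34.2% in female spleen and 37.7% in male spleen. Free RNA held 42.5% to 47.1%. The light-chain V composition of C1q-led members overlapped with that of free RNA by 71.9% in female bone marrow, 78.2% in male bone marrow, 86.7% in female spleen and 76.8% in male spleen, and that of light-chain-dominated members by 16.1% to 48.1%. The low overlap of the latter follows from how they were defined. The pooled comparison barcodes overlapped with free RNA by 76.1%, 77.0%, 86.6% and 77.9% in the same order, so the overlap does not set C1q-led members apart from a mixture of many ASCs.

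VDJ contigs, assembled from B-cell receptor transcripts and filtered to productive ones, came from libraries that the rule did not use, although light-chain counts defined the light-chain-dominated and comparison barcodes. Joined by shared barcodes, a contig was found for 3 of 88 C1q-led members (3.41%, exact 95% interval 0.709% to 9.64%), 2 of 32 Lyz2-led, 1 of 7 Cd68-led, 26 of 49 light-chain-dominated members (53.1%) and 4158 of 7565 comparison barcodes (55.0%). Female spleen differed from the other libraries: light-chain-dominated members had contigs in 4 of 4 (female bone marrow), 7 of 7 (male bone marrow), 9 of 30 (female spleen) and 6 of 8 (male spleen), and comparison barcodes in 69.9%, 71.2%, 29.96% and 76.1%. Without female spleen, which holds 41 of the C1q-led members, the shares were 3 of 47 C1q-led (6.38%, 1.34% to 17.5%), 17 of 19 light-chain-dominated (89.5%) and 72.8% of comparison barcodes. The 5 contig-bearing C1q-led and Lyz2-led members all lay in male spleen. Joined by label, 1 of 176 members had a contig. In 3 of those 5 the heavy and kappa chains were the same pair, IGHV9-3 with IGHM and IGKV5-39, and that pair is printed because it is by far the commonest of the VDJ library; the CDR3 nucleotides are given 5′ to 3′ with the first and last codon in capitals.
IGHV9-3 heavy CDR3: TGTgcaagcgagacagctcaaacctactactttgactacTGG
IGKV5-39 kappa CDR3: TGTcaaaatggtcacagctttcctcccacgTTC
The heavy chain was found on 954 other barcodes of that VDJ library and the kappa chain on 981. The same gene, Igkv5-39, led the free RNA of male spleen with 9.80% of its light-chain V UMIs and took 22.4% in the C1q-led members there, 22.5% in Lyz2-led, 22.5% in Cd68-led, 19.3% in light-chain-dominated members and 21.3% in comparison barcodes, so all groups stood above free RNA. Of the other C1q-led members with contigs, 1 carried the same kappa chain with another heavy chain, whose CDR3 was on no other barcode, and the last carried a pair whose heavy CDR3 was shared with 2 barcodes and whose kappa CDR3 was shared with 17.
IGHV1-9 heavy CDR3: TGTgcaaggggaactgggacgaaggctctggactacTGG
IGHV2-3 heavy CDR3: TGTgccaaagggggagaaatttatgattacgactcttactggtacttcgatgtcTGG
IGKV8-24 kappa CDR3: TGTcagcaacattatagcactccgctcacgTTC
Whether contigs on these 5 barcodes came from free RNA, from a joint droplet or from the cell itself was not tested.

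**Figure D3:**
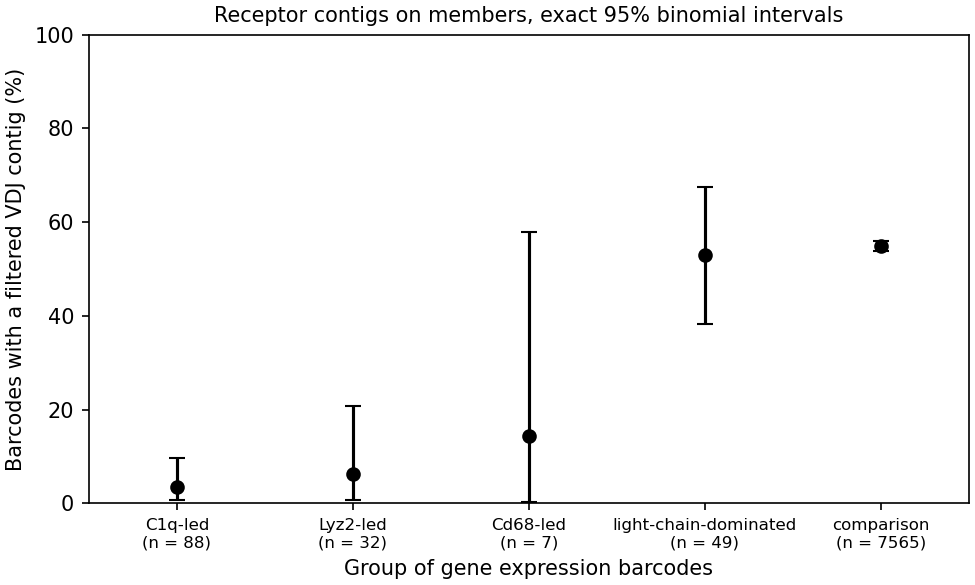
Points give the percentage of barcodes with a VDJ contig, joined by shared barcodes, with exact 95% binomial intervals, for the 4 groups of members and the comparison barcodes. The 4 libraries are pooled: C1q-led members stand at 3.41%, light-chain-dominated members at 53.1% and comparison barcodes at 55.0%; the last ranged from 29.96% to 76.1% between libraries.

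Over all members, expression outside the rule's genes was set against comparison barcodes library by library. Among 2793 genes at a mean of at least 50 CPM, 66 (2.36%) were at least 2-fold higher in members in 4 of 4 libraries and 9 (0.322%) at least 2-fold lower, and the median log2 ratio was -0.16. These 2 percentages count the contrast that the rule used, and nothing is read from them.

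Myeloid and macrophage genes were on the higher side. Tyrobp stood at 1931, 1698, 569 and 1038 CPM in members of female bone marrow, male bone marrow, female spleen and male spleen, 255-fold to 805-fold above comparison barcodes. Plbd1, a lysosomal hydrolase, stood at 402, 165, 72.7 and 128 CPM and at under 1 CPM in comparison barcodes of each library. Fcer1g, the shared gamma chain of Fc receptors, stood at 2123, 981, 834 and 824 CPM, 5.05-fold to 9.36-fold higher. Apoe, a lipid carrier of macrophages, was 4.82-fold to 27.7-fold higher; the lowest value is that of female spleen, where 260 of 502 Apoe UMIs lay in 1 light-chain-dominated barcode, without which it was 2.40-fold. Higher too were Ifitm3, an interferon-induced membrane protein, 3.37-fold to 33.0-fold, and the MHC class II genes H2-Aa and H2-Eb1 3.73-fold to 5.98-fold and 2.80-fold to 3.99-fold. For Ifitm3, 1 member held 65 of 106 UMIs in female bone marrow, 53 of 73 in male bone marrow, 65 of 156 in female spleen and 29 of 78 in male spleen. The other 13 of the 20 with the highest lowest-library ratio were Alox5ap, Lst1, Lgals3, S100a6, Tmsb4x, Actg1, Gpx1, Sat1, Atox1, Fth1, Plac8, Ifi30 and Vim. For Actg1, free RNA held 857 to 1147 CPM and members 819 to 1071, so the excess over comparison barcodes was no excess over free RNA.

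By list, 6 of 14 myeloid genes at that level were higher in 4 of 4 libraries, as were 6 of 12 red pulp and iron genes, 5 of 7 monocyte genes, 4 of 4 erythroid genes and 2 of 7 MHC class II genes, 3 of 4 lipid handling genes, 2 of 2 chemokine genes, 1 of 2 conventional and 1 of 4 plasmacytoid dendritic cell genes and 1 of 3 complement genes outside C1q, against the 2.36% over all genes. 1 other complement gene outside C1q was at least 2-fold lower in 4 of 4, against 0.322% over all genes. None of the 20 lysosome genes and none of the 25 ASC genes was at least 2-fold apart in all 4. The same held for 8 immediate early, 7 interferon response, 6 cell cycle, 4 B cell, 3 plasma cell niche and 2 Fc receptor genes. The median log2 ratio was 2.02 over the red pulp and iron list, 1.04 over the myeloid list, 0.70 over the lysosome list and -0.57 over the ASC list, against -0.16 over all genes. A gene could reach the mean of 50 CPM through members alone. These list counts and medians are therefore a description of the contrast that the rule used, and nothing more is read from them. Markers of other blood and stromal cells, among them T cells, which the CD90.2 gate removes, were low over members: the 13 T and NK cell genes summed to 0 to 102 CPM per library, the 8 megakaryocyte genes to 8.24 to 38.2, the 8 basophil and mast cell genes to 0 to 8.07 and the 10 stromal genes to 19.1 to 65.9. The 12 B cell genes summed to 1322 to 2117 CPM, below the 3144 to 3531 of free RNA. On the lower side stood Zc3h12d, Cacna1h, Cep250, Malt1, Cd93, Gm4070, Rreb1, Zkscan3, Pck2 and Pou2f1, a group with levels of 0 to 118 CPM in members. The cell surface lectin Cd93, which plasma cells carry, stood at 0, 41.2, 18.2 and 53.5 CPM in members and 99.5, 119, 64.8 and 121 in comparison barcodes.

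Whether members differed between spleen and bone marrow was tested on UMIs summed over members per library, with sex as a term, in edgeR's quasi-likelihood test with Benjamini-Hochberg adjustment over 2287 genes. No gene was higher in spleen (0%) and 4 were lower (0.175%) at an adjusted p under 0.05; 157 genes were under an unadjusted 0.05, and DESeq2 called 0 higher and 1 lower. The split by direction depended on the members taken: it was 29 higher and 23 lower with at least 10 marker UMIs, 11 and 3 without light-chain-dominated members and 4 and 2 with at least 3 marker genes. No gene was called with no sex term, nor when light-chain-dominated members were left out and free RNA was subtracted. The 4 genes of the main fit are known from monocytes and other myeloid cells. Ccl6 stood at 688 CPM in bone marrow of females and 256 in that of males, and at 44.4 and 37.5 CPM in the spleen libraries. It fell by 3.50 on the log2 scale in spleen (SE 0.44, adjusted p 0.0014, edgeR). Ccr2 stood at 593 and 90.7 CPM in bone marrow and 8.07 and 26.8 in spleen, and fell by 4.43 (SE 0.78, adjusted p 0.025, edgeR). The tissues did not overlap for either gene, which was a condition for naming a gene of this test.

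Ifitm2, an interferon-induced membrane protein, stood at 688 and 280 CPM in bone marrow against 80.7 and 85.6 in spleen and fell by 2.48 (SE 0.42, adjusted p 0.025, edgeR). Wfdc17, a secreted protein of myeloid cells, stood at 593 and 140 CPM against 96.9 and 48.2 and fell by 2.23 (SE 0.43, adjusted p 0.048, edgeR). Between 30.5% (Wfdc17) and 68.6% (Ccr2) of the UMIs of these genes lay in the 3 richest members. Without 8 members that were rich in Lyz2, Siglech or Hbb-bs, no gene was called, the log2 differences of Ccl6, Ifitm2 and Wfdc17 were -2.82, -1.98 and -2.02 (adjusted p 0.82 for each, edgeR) and Ccr2 fell under the filter on low counts. Without female bone marrow and with no sex term, Ccr2 (-2.52), Ifitm2 (-1.70) and Wfdc17 (-0.79) were not called; Ifitm2 was not called without female spleen (-2.43), nor Wfdc17 without male spleen (-1.78).

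Of the monocyte list, 7 of 15 genes were tested and 1, Ccr2, was lower in spleen, with a median log2 difference of -1.58 against 0.04 over all genes tested; of the chemokine list 2 were tested and Ccl6 was lower. None of 11 red pulp and iron genes passed, with a median of 0.25. Among them Hmox1 had a log2 difference of 0.73 (SE 0.33, adjusted p 0.68, edgeR), Spic of 1.39 (SE 0.70, adjusted p 0.77) and Slc40a1 of 0.91 (SE 0.55, adjusted p 0.85). These values are over all members. Among C1q-led members Hmox1 was instead higher in both bone marrow libraries than in both spleen libraries, at the levels given above, as was the sum of the 20 red pulp and iron genes, at 54814 (females) and 43222 CPM (males) in bone marrow against 28715 and 18870 in spleen, and the tissues overlapped for Spic and Slc40a1. Immunoglobulin RNA took 18.9% (females) and 32.1% (males) of C1q-led UMIs in bone marrow and 34.2% and 37.7% in spleen. This ran opposite to Hmox1 and the 20-gene sum, and its part in them was not tested. The female bone marrow levels rest on 4 C1q-led barcodes. None of 18 myeloid, 18 lysosome, 25 ASC or 7 MHC class II genes passed. Lyz2-led barcodes made up 4 of 12 and 4 of 24 members in bone marrow and 12 of 84 and 12 of 56 in spleen, and their part in the 4 calls was not tested.

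Between sexes, in the same fit, 5 genes were higher in male members (0.219%) and 4 lower (0.175%); 194 were under an unadjusted p of 0.05. The split was 2 higher and 1 lower with DESeq2, 0 and 3 with at least 3 marker genes, 3 and 0 with members thinned to 500 UMIs and 4 and 3 with at least 10 marker UMIs, and the last 2 called none of the 9 genes. Siglech, the plasmacytoid dendritic cell receptor, stood at 0 and 2.02 CPM in female bone marrow and female spleen and at 387 and 155 in male bone marrow and male spleen, with a log2 difference of 6.20 (SE 0.72, adjusted p 0.00016, edgeR). Of its UMIs 98.7% lay in the 3 Cd68-led barcodes described above. Cd7, a surface protein of T cells and plasmacytoid dendritic cells, had no UMI in either female library and stood at 190 CPM in male bone marrow and 150 in male spleen (fitted log2 difference 8.03, which is no bound since the female libraries are at 0; SE 1.06, adjusted p 0.0011, edgeR); 82.4% of its UMIs lay in 3 members.

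Cox6a2, a subunit of cytochrome oxidase, had a log2 difference of 6.63 (SE 0.73, adjusted p 0.00013, edgeR), Ccnd1, cyclin D1, of 4.32 (SE 0.83, adjusted p 0.027) and Ctsl, cathepsin L, of 2.58 (SE 0.50, adjusted p 0.028), with 69.8% to 73.3% of their UMIs in 3 members. On the lower side, Xist, which only cells with an inactive X transcribe, is a check of the labels. Cd52, a lymphocyte surface glycoprotein, stood at 4857 and 5641 CPM in female bone marrow and spleen and at 1195 and 2606 in male, and fell by 1.59 (SE 0.28, adjusted p 0.013, edgeR). Ifi27l2a, an interferon-induced gene, stood at 1186 and 497 against 223 and 203 CPM and fell by 1.85 (SE 0.35, adjusted p 0.027), and Ly6k at 172 and 275 against 33.0 and 26.8 CPM and fell by 3.01 (SE 0.50, adjusted p 0.0093). Female and male libraries did not overlap for any of these genes, which was again a condition for naming them. The share without overlap over all genes tested was not counted. The comparison barcodes ran the same way for the 3 lower genes other than Xist, with Cd52 at 2097 and 3206 CPM in female bone marrow and spleen against 1513 and 1408 in male, Ifi27l2a at 196 and 658 against 68.3 and 142 and Ly6k at 201 and 238 against 126 and 110. Of the plasmacytoid dendritic cell list, 5 of 10 genes were tested and 2, Siglech and Cox6a2, were higher in males, with a median log2 difference of 1.66 against 0.02 over all genes. Without the 8 rich members, Xist was the only gene called; the log2 differences of Ly6k, Cd52 and Ifi27l2a were then -3.95, -1.55 and -1.47, and Siglech, by which 3 of the 8 were chosen, Cd7, Cox6a2, Ccnd1 and Ctsl fell under the filter on low counts. With 1 library left out and no tissue term, calls were lost for Cd52 (-1.09), Ctsl (2.06) and Ifi27l2a (-2.05) without male bone marrow, for Ly6k (-2.54) without female spleen and for Ly6k (-2.84) and Ifi27l2a (-1.90) without male spleen, where Ccnd1 was not tested; Ccnd1 was called at 6.89 without female spleen. With DESeq2, Xist (adjusted p 0.9998), Cd7, Ly6k, Ifi27l2a, Ctsl and Ccnd1 were not called.

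**Figure D4:**
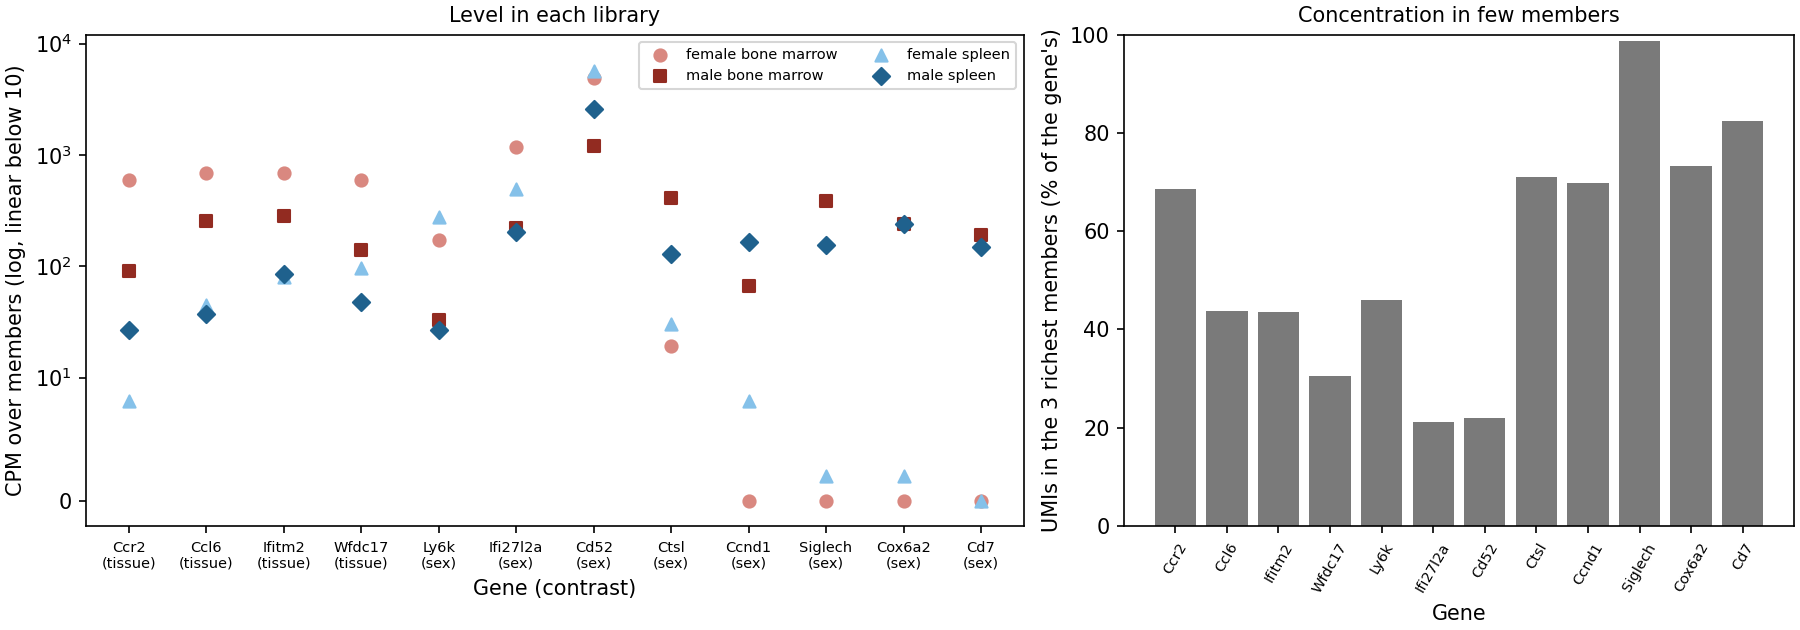
Left, points give the CPM over members in each of the 4 libraries (axis logarithmic above 10, linear below) for the 12 genes other than Xist called between tissues or sexes; right, bars give the percentage of each gene's UMIs in its 3 richest members. The bars reach 98.7% for Siglech and are lowest, at 21.2%, for Ifi27l2a.

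The spleen minus bone marrow difference of members was finally compared with that of comparison barcodes of the same libraries (edgeR, library as a block, 10441 genes). In 5 genes (0.0479%) the difference was more positive in members and in 5 (0.0479%) more negative, against 5 and 9 with DESeq2's size factors, 3 and 0 with DESeq2, 11 and 1 with at least 3 marker genes, 6 and 0 without light-chain-dominated members, 5 and 0 without female spleen, 1 and 6 without male spleen, 20 and 6 with at least 10 marker UMIs and none in either direction with barcodes thinned to 500 UMIs. With edgeR, 404 were under an unadjusted p of 0.05, and the median log2 value over all genes was 0.25. A class by sex term gave 4 and 4, and these 8 were among the 10 of the main fit. On the positive side were the globin genes Hbb-bs (log2 3.84, SE 0.44, adjusted p 1.2e-14, edgeR), Hba-a1 (4.81, SE 0.65, adjusted p 7.9e-10) and Hba-a2 (4.54, SE 0.80, adjusted p 3.9e-05). The others were Il4i1, an amino acid oxidase (3.04, SE 0.73, adjusted p 0.029), and the metallothionein Mt1 (1.95, SE 0.45, adjusted p 0.015). Hbb-bs stood at 555, 90.7, 900 and 5586 CPM in members of female bone marrow, male bone marrow, female spleen and male spleen; 96.3% of its UMIs lay in 3 members. Il4i1 stood at 0, 41.2, 8.07 and 417 CPM, and 75 of its 78 UMIs in male spleen came from 1 barcode. Mt1 stood at 76.5, 206, 133 and 230 CPM in members and at 212, 608, 167 and 122 in comparison barcodes, in the same order. Both classes thus enter its value. Members of spleen stood above those of bone marrow for Hbb-bs, and the tissues overlapped for Hba-a1, Hba-a2, Mt1 and Il4i1. Without male spleen, Hba-a1 (3.57), Hba-a2 (3.08), Mt1 (1.35) and Il4i1 (-0.10) were not called, nor was Il4i1 without female bone marrow (2.50) or Mt1 without male bone marrow (2.06); Il4i1 without male bone marrow was called at 12.89.

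On the negative side, S100a6, a calcium-binding protein, stood at 1109 and 264 CPM in members of bone marrow and 100.9 and 176.6 in spleen, with a log2 difference of differences of -3.70 (SE 0.76, adjusted p 0.0021, edgeR). Apoe had -1.57 (SE 0.35, adjusted p 0.013), Ifitm3 -1.80 (SE 0.35, adjusted p 0.00079), Ifi27l2a -1.99 (SE 0.38, adjusted p 0.00047) and Ms4a4a -5.31 (SE 1.20, adjusted p 0.013). Members of the 2 tissues did not overlap for S100a6, Ifitm3 and Ms4a4a and overlapped for Apoe and Ifi27l2a. Ms4a4a had only 12 and 2 UMIs in female and male bone marrow and 3 and 0 in female and male spleen. Of the 12, 10 came from 1 barcode. For Apoe the overlap rests on the 1 light-chain-dominated barcode of female spleen named above: the level there was 1013 CPM with it and 504 without it, against 1492 and 585 in bone marrow and 556 in male spleen. None of these 5 genes was called without female spleen, where the log2 value was -1.55 for S100a6, -1.46 for Apoe, -1.14 for Ifitm3, -1.38 for Ifi27l2a and -11.79 for Ms4a4a. None was called without female bone marrow either, where it was -4.07, -1.06, -1.20, -1.66 and -3.38 in the same order. Without male spleen, Apoe (-1.69) and Ms4a4a (-4.96) were not called. Without the 8 rich members no gene was called here; the log2 value was then 1.82 for Mt1, 2.85 for Il4i1, -1.63 for Ifi27l2a and -1.20 for Apoe, each in the same direction, and 0.31 for Hba-a1, -1.35 for Hba-a2 and -1.47 for Hbb-bs. Since 2 of the 8 were left out for their Hbb-bs UMIs, the fall of the globin genes follows from that choice. The 3 globin genes were 3 of 4 tested in the erythroid list; none of 19 red pulp and iron genes and none of 22 myeloid genes passed, with medians of 0.30 and -0.27.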

How the data were processed

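The deposited gene expression matrices hold raw UMI counts per gene and barcode, made with Cell Ranger 6.0.2 (mm10, GRCm38), per the file headers and the submitters' processing notes; the deposited VDJ tables give UMI counts per productive contig, per the file headers. The members and gene lists were chosen with earlier results of these data known. Of 32285 gene rows, 395 immunoglobulin rows were left out of library sizes and tests, and the rule's 12 genes out of tests. CPM is per 1000000 UMIs outside immunoglobulin genes. UMIs were summed over members per library, since cells are not replicates, and tested with edgeR 4.0.16 (R 4.3.3; TMM, filterByExpr, quasi-likelihood, Benjamini-Hochberg at 0.05); the tissue and sex fit leaves 1 residual degree of freedom and the class by tissue fit 2. Each library is 1 sort pool and the 2 libraries of a tissue differ in sex, so p-values speak for these libraries only. The quasi-likelihood test of edgeR shares its estimate of spread over genes. A p-value therefore does not rest on the spread of its own gene alone. DESeq2 1.42.0, other filters, scalings, membership rules, thinning and left-out libraries were alternatives. The fits were tested on simulated counts. These had the same spread for every gene and no concentration of UMIs in single members, so they do not bear on calls that rest on few members. No doublet caller was run; members with 1 dominant light chain were left out as an alternative. For members against comparison barcodes, genes with at least 20 UMIs per library were ranked by ratio. The 20 with the highest lowest-library ratio and the 10 with the lowest highest-library ratio were named. In tests, genes past the threshold at 50 CPM or more were named. For tissue and sex, the 2 groups of libraries also had to be without overlap in CPM. Genes of 26 lists were named too. Members named by group, threshold or contig were chosen after their values were seen. Intervals are exact binomial (Clopper-Pearson, 95%). Thymus libraries were not analysed beyond counting.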

Additional observations from a re-analysis of the deposited data

Results flagged for a closer look

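In 10 genes the spleen minus bone marrow difference of members differed from that of the comparison barcodes of the same libraries by a test of the difference itself (edgeR's quasi-likelihood test, class by tissue term). The log2 values were 4.81 for Hba-a1, 4.54 for Hba-a2, 3.84 for Hbb-bs, 3.04 for Il4i1 and 1.95 for Mt1, and -5.31 for Ms4a4a, -3.70 for S100a6, -1.99 for Ifi27l2a, -1.80 for Ifitm3 and -1.57 for Apoe. The 3 richest members held 93.7% of the UMIs of Hba-a1, 97.1% of Hba-a2, 96.3% of Hbb-bs, 93.1% of Il4i1, 76.5% of Ms4a4a and 21.2% to 46.2% of those of the other 5. Whether the few rich members or the tissue account for the differences was not tested. With 8 members left out, chosen after their values were seen for being rich in Lyz2, Siglech or Hbb-bs, 0 of the 10 were called. The log2 values were then 0.31 for Hba-a1, -1.35 for Hba-a2, -1.47 for Hbb-bs, 2.85 for Il4i1, 1.82 for Mt1, -3.35 for Ms4a4a, -1.82 for S100a6, -1.63 for Ifi27l2a, -1.19 for Ifitm3 and -1.20 for Apoe. The fall of the globin genes follows from the choice of members by Hbb-bs.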

How the results depend on the processing

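Each alternative changed 1 choice unless it names more. The count of genes called between tissues (4) was 1 with DESeq2, 2 with its size factors, 14 with no filter on low counts, 52 with at least 10 marker UMIs per member, 14 without light-chain-dominated members, 0 when free RNA was also subtracted, 0 without the 8 rich members, 0 with no sex term and 12 to 32 with 1 library left out and no sex term (15, 32, 12 and 17 for the omission of female bone marrow, male bone marrow, female spleen and male spleen). Between sexes (9) it was 3 with DESeq2, 17 with no filter, 3 with at least 3 marker genes, 5 without light-chain-dominated members, 0 when free RNA was also subtracted, 3 with members thinned to 500 UMIs, 1 without the 8 rich members, 5 with no tissue term and 14 to 93 with 1 library left out and no tissue term (73, 14, 93 and 15 in the same order). For the difference of tissue differences (10) it was 3 with DESeq2, 26 with at least 10 marker UMIs, 6 without light-chain-dominated members, 6 when free RNA was also subtracted, 0 when thinned, 0 without the 8 rich members and 5 (without female spleen) to 34 (without male bone marrow) with 1 library left out. Of the 4 tissue genes, 4 were among the 52 called at 10 marker UMIs, and 1 each among those called with at least 3 marker genes and when thinned. Of the 9 sex genes, 0 were among the 7 called at 10 marker UMIs, 0 when thinned and 1 with at least 3 marker genes. Il4i1 turned to -0.69 with at least 3 marker genes and with 1 library left out ranged from -0.10 (without male spleen) to 12.89 (without male bone marrow), and the cause was not tested. Hbb-bs turned to -1.47 and Hba-a2 to -1.35 without the 8 rich members, 2 of which were left out for their Hbb-bs UMIs. The share of kept barcodes that were members was, with at least 10 marker UMIs, 0.122% in female bone marrow, 0.192% in male bone marrow, 0.194% in female spleen and 0.196% in male spleen. With at least 3 marker genes it was 0.412%, 0.317% and 0.339% in the last 3 libraries, thinned to 1000 UMIs 0.249%, 0.238% and 0.310%, and without Lyz2 0.365% in male spleen. C1q-led members were 60% of members at 10 marker UMIs and 70.3% at 3 marker genes. Leaving out the 8 members and subtracting free RNA without light-chain-dominated members were chosen after seeing the data. Subtracting free RNA from all members was not run, since male bone marrow would have needed 117.3% of its UMIs. Sex in the tissue fit pairs the 2 libraries of each sex, and library in the class by tissue fit pairs the 2 classes. By replicate number, no paired analysis was possible because every library carries number 1. The depth limits single genes: 111 of 176 members rest on 5 to 9 marker UMIs.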
